A study of Mus musculus with 21 samples.

Results

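Integrin genes of muscle and fibroblasts were followed across 21 mouse heart arrays as a family of 10 members, 9 of which could be measured. The members were Itga1, Itga5, Itga7, Itga9, Itga11 and Itgav, which encode alpha subunits, Itgb1, Itgb3 and Itgb5, which encode beta subunits, and Itgb1bp2, which encodes melusin, a muscle protein that binds the tail of the beta 1 subunit and is no integrin itself. They were chosen by name, and every probe set that the platform annotation gives to a member alone was used. That annotation names 28 such probe sets, among 45037 in all, for 9 of the 10 genes. Itga11 has none in it and is not analysed here. On the brightest probe set, all 9 passed the filter on low values and were among the 13279 genes tested, of 18193 gene symbols.

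Integrins are heterodimers of an alpha and a beta subunit that span the cell membrane and tie the extracellular matrix to the actin cytoskeleton. The alpha subunit largely sets the ligand: alpha 1 and alpha 11 bind collagens, alpha 7 binds laminin, alpha 5 binds fibronectin, alpha v binds vitronectin, fibronectin and the latent form of TGF-beta through the RGD tripeptide, and alpha 9 binds tenascin C and osteopontin. The alpha 7 beta 1 pair is the main laminin receptor of adult heart muscle, while alpha 1, alpha 11 and alpha v are known from fibroblasts, and pairs of alpha v with beta 3 or beta 5 occur on fibroblasts, macrophages and vessel cells.

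The arrays covered 4 groups: sham-operated wild-type mice (n = 4), wild-type mice after transverse aortic constriction, or TAC (n = 6), G4D mice after sham (n = 5) and G4D mice after TAC (n = 6). TAC puts a ligature around the transverse aorta and loads the left side of the heart with pressure, and sham mice had the surgery without handling of the aorta. G4D mice are heterozygous for a Gata4 allele whose second exon is deleted, in every group that carries the name, and wild-type mice carry no such allele. Strain, sex, age and the time after surgery are not given in the sources used here, nor whether replicates are separate animals, so p-values measure the spread between these samples.

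The labels name cardiac myocytes as the source, and the 11 heart muscle markers tested had a mean log2 level of 12.3 to 12.43 on every array. All 14 fibroblast, 12 endothelial and 15 macrophage and myeloid markers also passed the filter, which by itself does not show that RNA of these cells was present. Fewer cells of a type cannot be told apart from less RNA per cell. The median of an array before normalization lay between 4.31 and 5.33, and precision is limited by how many arrays each group has. Replicate 5 of G4D sham stood apart on the atrial markers, with a mean log2 level of 10.15 against 6.47 to 7.32 on every other array. Gata4 did not pass the test between genotypes on either of its probe sets (log2 change of G4D over wild type of -0.25 ± 0.12 and -0.07 ± 0.31 in sham), and where these lie relative to the deleted exon is not known, so they do not check the labels.

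Levels below are log2 values after quantile normalization, changes are differences of group means on that scale with standard errors, and adjusted p-values are from limma with Benjamini-Hochberg adjustment over the 13279 tested genes, a gene being called under 0.05. After TAC in G4D hearts, 6 of the 9 members were called, 5 higher and 1 lower, where 22.5% of all tested genes were called, 13.2% higher and 9.32% lower. The alpha subunit genes Itga9, Itga1, Itga5, Itgav and Itga7 rose, and Itgb1bp2 fell. In wild-type hearts 2 of the 9 were called after TAC, Itga9 and Itga1, both higher, against 7.35% of all genes, 5.19% higher and 2.16% lower. After TAC, Itga9 and Itgb5 were higher in G4D than in wild type, 2 of 9 against 3.36% of all genes, 2.10% higher. In sham hearts 0 of 9 members were called between the genotypes by limma, where 0.0527% of all genes were called. At an unadjusted limma p under 0.05 there was 1 member, and the share of all genes at that threshold was not counted. The median change over the 9 members was 0.43 after TAC in G4D, 0.24 after TAC in wild type, 0.32 between genotypes after TAC and -0.12 between genotypes in sham, beside medians of all genes of -0.02, -0.02, -0.01 and -0.01. These comparisons share groups, so their values are given side by side and not as separate evidence.

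**Figure D1:**
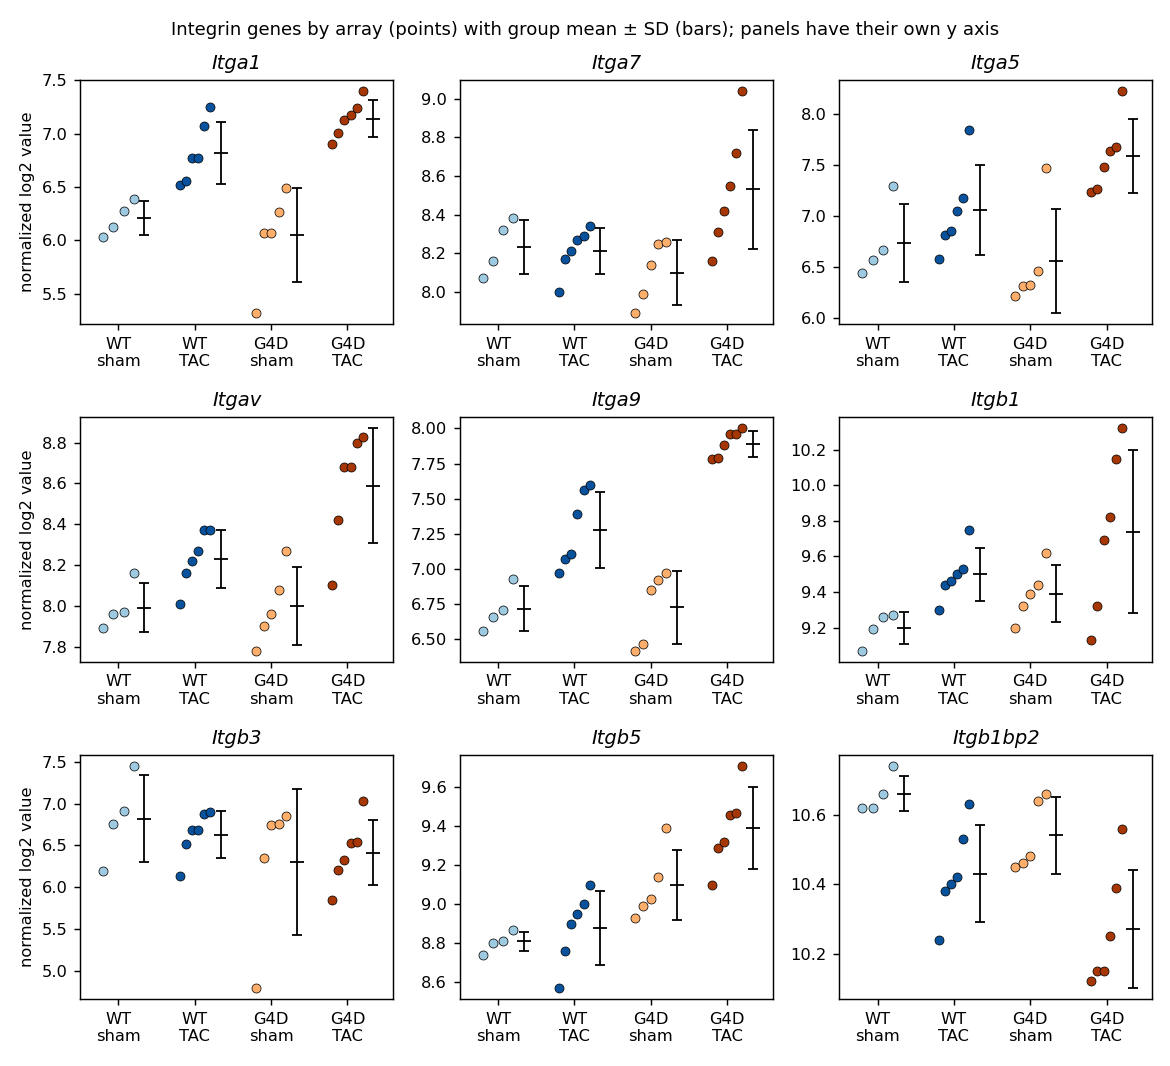
Normalized log2 value of each measured member (y axis, its own range in each panel) on each of the 21 arrays, in 4 groups along the x axis; points are arrays, and bars are the group mean ± SD. The 6 G4D TAC arrays of Itga9 sit between 7.78 and 8, above all other arrays of that gene, while the groups of Itgb3 overlap.

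Itga9, the tenascin and osteopontin receptor subunit, had the largest change of the 9 members after TAC in G4D. Its level in wild-type sham was 6.56, 6.71, 6.93 and 6.66 for replicates 1 to 4, and in G4D sham it was 6.85, 6.47, 6.92, 6.97 and 6.42 for replicates 1 to 5. After TAC it ran from 6.97 through a median of 7.25 to 7.6 in wild type, and from 7.78 through 7.92 to 8 in G4D. The sham groups covered the same range, every wild-type TAC array lay above every wild-type sham array, and every G4D TAC array lay above all arrays of the other groups. Such a gap between TAC and sham was seen in 3 of 9 members in wild type, beside 10.5% of all tested genes, and in 2 of 9 in G4D, beside 10.1%. In wild type it rose after TAC by 0.57 ± 0.13 (1.48-fold, adjusted p = 0.0118). In G4D the rise was 1.17 ± 0.13 (2.25-fold, adjusted p = 1.72e-06). The wild-type call was lost without wild-type sham replicate 1 (0.52, adjusted p = 0.0531), in the values as deposited (0.50, adjusted p = 0.583) and with median centring (0.57, adjusted p = 0.0634). Between genotypes Itga9 differed by 0.01 ± 0.14 in sham (adjusted p = 0.994) and by 0.61 ± 0.12 after TAC (1.53-fold, adjusted p = 0.00541). The G4D and wild-type TAC groups did not overlap, which held for 2.59% of all tested genes.

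A test of whether the TAC change itself differed between genotypes gave 0.60 ± 0.18 for Itga9 and did not pass (adjusted p = 0.301). Another probe set of the gene, 1450029_s_at, gave 0.72 ± 0.21 in wild type and 1.39 ± 0.20 in G4D, and in a fit of every probe set on the array the G4D change was called (adjusted p = 0.00015). A dimmer one, 1420860_at, stood at 0.09 ± 0.16 and -0.01 ± 0.15. Between genotypes after TAC these 2 gave 0.69 ± 0.19 (adjusted p = 0.109) and -0.03 ± 0.14 (adjusted p = 0.856) over every probe set, and on both the TAC groups overlapped, so the genotype call is that of the brightest probe set. Tnc, the gene of the alpha 9 ligand tenascin C, rose by 2.48 ± 0.43 in wild type and 4.06 ± 0.40 in G4D. Its genotype difference after TAC, 1.08 ± 0.38, was not called (limma adjusted p = 0.157). Nor was the difference of its TAC changes, 1.58 ± 0.59 (adjusted p = 0.426).

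Itga1, which encodes the collagen receptor subunit found on fibroblasts and smooth muscle, followed a like course. It stood at 6.03, 6.28, 6.39 and 6.13 in wild-type sham and at 6.07, 6.07, 5.32, 6.49 and 6.27 in G4D sham. After TAC it ran from 6.52 through 6.77 to 7.25 in wild type and from 6.9 through 7.15 to 7.4 in G4D. Neither TAC group overlapped its own sham group, the lowest array was G4D sham replicate 3, and the TAC groups overlapped each other. It rose by 0.61 ± 0.18 in wild type (1.53-fold, adjusted p = 0.0367) and by 1.10 ± 0.17 in G4D (2.14-fold, adjusted p = 7.23e-05). The wild-type call was lost on leaving out wild-type sham replicate 1, 2 or 4 or wild-type TAC replicate 1, 4 or 5, at changes of 0.53 to 0.64. It was also lost with no filter (adjusted p = 0.0612), in the values as deposited (0.732), with median centring (0.0639), with the mean of the probe sets (0.105) and with the replicate block (0.079). G4D hearts differed from wild type by -0.16 ± 0.18 in sham (adjusted p = 0.889) and by 0.32 ± 0.16 after TAC (adjusted p = 0.398), and the difference of the TAC changes was 0.48 ± 0.24 (adjusted p = 0.617). The dimmer probe set of Itga1 gave 0.38 ± 0.24 and 0.56 ± 0.22 after TAC, neither called in the fit of every probe set, where 2.02% of probe sets passed in wild type and 8.97% in G4D.

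Itga5 pairs with beta 1 as the main fibronectin receptor. On its brightest probe set it stood at 6.67, 6.57, 7.3 and 6.44 in wild-type sham, and at 6.32, 6.22, 6.33, 7.47 and 6.46 in G4D sham. After TAC it ran from 6.58 through 6.95 to 7.85 in wild type and from 7.24 through 7.56 to 8.23 in G4D. Replicate 4 of G4D sham lay inside the range of the G4D TAC arrays, and the other 4 lay below it. In wild type TAC stood 0.31 ± 0.26 above sham (adjusted p = 0.56). In G4D the gene rose by 1.03 ± 0.24 (2.04-fold, adjusted p = 0.00369), or by 1.26 without that replicate. The G4D rise rests on this probe set alone, since the other 3 of the gene gave 0.02 ± 0.10, -0.22 ± 0.16 and -0.34 ± 0.17, none called, and the mean of the probe sets above the filter gave 0.27 (adjusted p = 0.045). Which transcripts each of them reads was not tested. After TAC, G4D hearts stood 0.53 ± 0.23 above wild type (adjusted p = 0.292).

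Itgav, the RGD-binding alpha v subunit that takes part in the release of active TGF-beta, stood at 7.89, 8.16, 7.96 and 7.97 in wild-type sham and at 7.9, 7.78, 7.96, 8.08 and 8.27 in G4D sham. It ran from 8.01 through 8.24 to 8.37 in wild-type TAC and from 8.1 through 8.68 to 8.83 in G4D TAC. In G4D TAC 5 of the 6 arrays lay above every array of the other groups, and replicate 4 lay within the range of sham. TAC hearts of wild type stood 0.24 ± 0.13 above sham (adjusted p = 0.313). In G4D the gene rose by 0.59 ± 0.12 (1.5-fold, adjusted p = 0.00109). Between genotypes it was 0.00 ± 0.13 in sham and 0.36 ± 0.11 after TAC (adjusted p = 0.0977), or 0.45 and called without G4D TAC replicate 4 (adjusted p = 0.00828). The 4 dimmer probe sets of Itgav did not follow it in G4D: 1 above the filter stood at -0.53 ± 0.29 and 3 below it at 0.12, -0.01 and -0.30, with 0 of the 4 called. Averaged over the pair above the filter, the change in G4D was 0.03 (adjusted p = 0.922), so the call is that of the bright probe set.

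**Figure D2:**
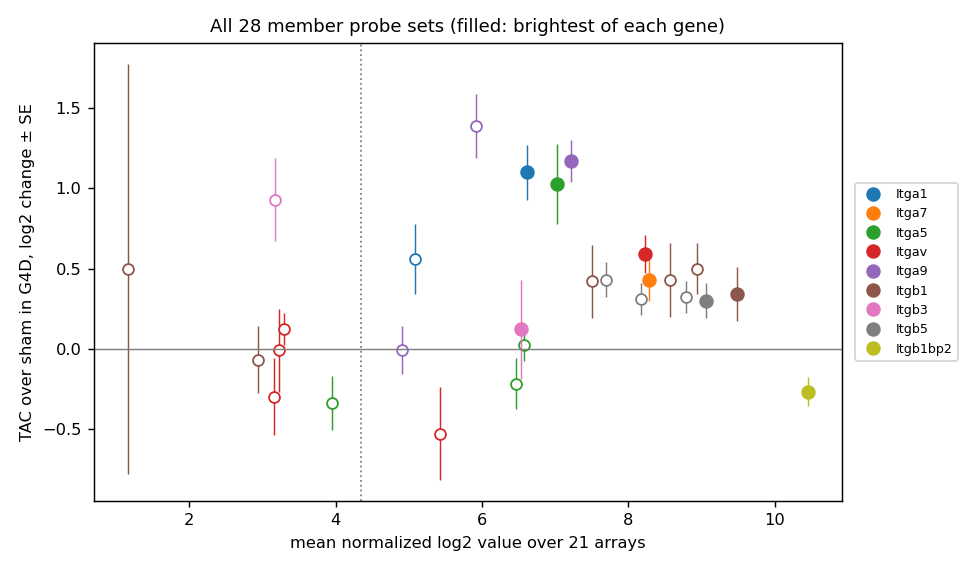
Change after TAC in G4D (y axis, log2 change ± SE) of all 28 member probe sets against their mean normalized log2 value (x axis); filled points are the brightest probe set of a gene, and the dotted line is the filter at 4.35. The 4 probe sets of Itgb5 lie together between 0.30 and 0.43, whereas those of Itga5 and Itgav spread from below 0 to 1.03 and 0.59.

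Promoter windows of Itga1 and Itga5 are shown, the alpha subunit genes that rose in G4D TAC and whose entry in the RefSeq table (GRCm38.p6) lies at the end of the annotated gene, since these members moved in the same direction and Gata4 is the altered factor. Each covers 250 bases before to 50 bases after the start site, 5′ to 3′ on the gene's strand, with matches to GATAA (the core read by GATA factors), CATTCC (TEAD factors) and GGGCGG (Sp1), searched on both strands, in capitals. No 2 of these motifs overlapped in them.
Itga1, chr13:115101915-115102214, strand -: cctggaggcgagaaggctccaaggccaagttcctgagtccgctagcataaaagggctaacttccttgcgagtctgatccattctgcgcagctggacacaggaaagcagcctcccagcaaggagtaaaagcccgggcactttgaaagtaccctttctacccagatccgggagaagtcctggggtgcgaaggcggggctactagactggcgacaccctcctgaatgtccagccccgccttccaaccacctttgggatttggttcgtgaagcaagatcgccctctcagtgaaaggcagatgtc
Itga5, chr15:103366742-103367041, strand -: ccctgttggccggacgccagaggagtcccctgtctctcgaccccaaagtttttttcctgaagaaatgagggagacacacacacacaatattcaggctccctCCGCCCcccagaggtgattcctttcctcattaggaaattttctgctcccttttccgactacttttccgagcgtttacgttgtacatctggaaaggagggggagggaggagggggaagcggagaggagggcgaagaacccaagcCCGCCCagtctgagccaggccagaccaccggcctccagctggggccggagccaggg
The capitals are GGGCGG or its reverse complement, at positions -149 and -6 in Itga5, counted from the start site, and the Itga1 window holds no match. Of the 7 members in the table, Itga11 included (Itga7, Itgb3 and Itgb1bp2 have no entry), 4 held GGGCGG, 1 held CATTCC and 0 held GATAA, beside 35.7%, 14.7% and 25.4% of all 32851 windows. The entries of Itga9 and Itgav lie inside the annotated gene and are counted here but not shown. A match is a description of the letters, and their absence says nothing of binding elsewhere.

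Itga7 encodes the laminin-binding partner of beta 1 in heart muscle. On its 1 probe set it stood at 8.38, 8.16, 8.32 and 8.07 in wild-type sham and at 7.99, 8.25, 8.14, 8.26 and 7.89 in G4D sham. After TAC it ran from 8 through 8.24 to 8.34 in wild type and from 8.16 through 8.48 to 9.04 in G4D. The first 3 groups covered nearly the same range, and 5 of the 6 G4D TAC arrays lay above every G4D sham array. The wild-type change was -0.02 ± 0.13 (adjusted p = 0.961). In G4D it rose by 0.43 ± 0.12 (1.35-fold, adjusted p = 0.0162), which was not called when the 2 G4D groups were fitted alone (adjusted p = 0.0665). G4D TAC stood 0.32 ± 0.12 above wild-type TAC (adjusted p = 0.18), and the difference of the TAC changes was 0.45 ± 0.18 (unadjusted p = 0.0227, adjusted p = 0.476 by limma).

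Among the beta subunits, Itgb5, a partner of alpha v, differed between the genotypes after TAC. It stood at 8.87, 8.81, 8.74 and 8.8 in wild-type sham and at 9.03, 8.93, 9.39, 9.14 and 8.99 in G4D sham, so that every G4D sham array lay above every wild-type sham array. After TAC it ran from 8.57 through 8.92 to 9.1 in wild type and from 9.1 through 9.39 to 9.71 in G4D. On this, the brightest probe set, the TAC groups met at 9.1. On the other 3 the TAC groups did not overlap, while the sham groups did. The genotype difference was 0.29 ± 0.12 in sham (1.22-fold, adjusted p = 0.517), but -0.06 there in the values as deposited, and 0.51 ± 0.10 after TAC (1.43-fold, adjusted p = 0.00725). The other 3 probe sets of Itgb5 gave 0.50, 0.54 and 0.56 after TAC, and all were called when every probe set was fitted (adjusted p = 0.0118, 0.0058 and 0.0108), where 0.853% of probe sets passed. In the values as deposited the genotype difference after TAC was 0.69 and not called (adjusted p = 0.134).

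The TAC change of Itgb5 was 0.07 ± 0.12 in wild type and 0.30 ± 0.11 in G4D (adjusted p = 0.0552). The G4D change passed under 6 of 8 processing alternatives, at 0.73 in the values as deposited, at 0.52 with median centring and at 0.30 to 0.34 in the other 4. It also passed without G4D sham replicate 3 (0.37) or G4D TAC replicate 3 (0.36), and 2 of its other 3 probe sets were called in G4D at 0.32 and 0.43. The difference of the TAC changes, 0.22 ± 0.16, did not pass (adjusted p = 0.761). On the brightest probe sets, Itgb5 was the 1 member of 9 whose sham groups did not overlap between genotypes, a separation that 2.90% of tested genes showed. On its other 3 probe sets the sham groups overlapped.

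Itgb1, the common partner of most alpha subunits here, did not pass in any of the comparisons on its brightest probe set. It stood at 9.19, 9.26, 9.07 and 9.27 in wild-type sham and at 9.62, 9.32, 9.44, 9.2 and 9.39 in G4D sham. It ran from 9.3 through 9.48 to 9.75 in wild-type TAC and from 9.13 through 9.75 to 10.32 in G4D TAC. Wild-type TAC lay wholly above wild-type sham, with a change of 0.30 ± 0.17 (adjusted p = 0.351), and the G4D TAC arrays were the most spread of the 4 groups, with an SD of 0.46. The change in G4D was 0.34 ± 0.16 (adjusted p = 0.127), or 0.46 and called without G4D TAC replicate 3 (adjusted p = 0.0242). It was also called in the values as deposited (0.78, adjusted p = 0.0217) and with median centring (0.57, adjusted p = 0.0294). Another 3 bright probe sets gave 0.50, 0.43 and 0.42 in G4D, none called, and 2 dim ones stood at mean levels of 2.94 and 1.16, below the filter.

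Itgb3, the beta subunit of the vitronectin receptor and of the platelet fibrinogen receptor, showed no called change on its brightest probe set. It ran from 6.19 to 7.45 in wild-type sham, 6.13 to 6.9 in wild-type TAC, 4.79 to 6.85 in G4D sham and 5.85 to 7.03 in G4D TAC, and all groups overlapped. The TAC change was -0.19 ± 0.32 in wild type and 0.12 ± 0.30 in G4D, or -0.26 without G4D sham replicate 3, the lowest array. Its dimmer probe set, with a mean of 3.17 below the filter, was called after TAC in G4D at 0.93 ± 0.26 (adjusted p = 0.0299 over every probe set), so the probe sets of this gene do not give one answer.

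Itgb1bp2, whose product melusin is a chaperone-like sensor of load in muscle, was the 1 member that fell after TAC in G4D. It stood at 10.74, 10.62, 10.62 and 10.66 in wild-type sham and at 10.45, 10.46, 10.66, 10.48 and 10.64 in G4D sham. After TAC it ran from 10.24 through 10.41 to 10.63 in wild type and from 10.12 through 10.2 to 10.56 in G4D. Only the wild-type sham and G4D TAC groups did not overlap. In wild type the change was -0.23 ± 0.09 (adjusted p = 0.164). In G4D it was -0.27 ± 0.09, 1.2-fold lower (adjusted p = 0.0318), but 0.14 in the values as deposited, where the median of all genes shifted by 0.31. Leaving out G4D sham replicate 3 or 5 or G4D TAC replicate 1, 2, 5 or 6 ended the call, at changes between -0.26 and -0.24. With median centring the change was -0.07 (adjusted p = 0.831).

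**Figure D3:**
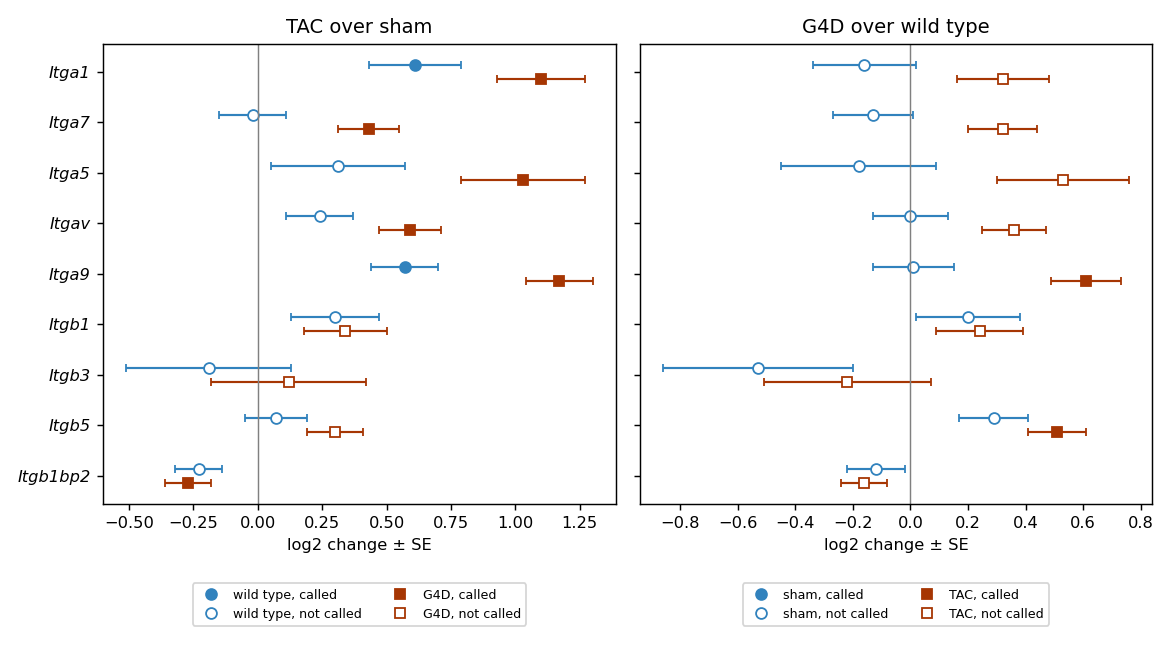
Log2 change ± SE (x axis) of each measured member (y axis) for TAC over sham in wild type and G4D (left) and for G4D over wild type in sham and after TAC (right); filled symbols were called. After TAC the G4D changes of the alpha subunit genes run from 0.43 to 1.17 and those of wild type from -0.02 to 0.61, and no difference between them passed.

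The difference between genotypes in the TAC change was positive for 8 of the 9 members (Itgb1bp2 stood at -0.04, and at 0.49 in the values as deposited). Its median was 0.35, beside 0.01 for all genes. At an unadjusted limma p under 0.05 there were 2, Itga9 and Itga7, and the share of all genes at that threshold was not counted. After adjustment 0 of 9 passed, where limma called 0.0151% of all genes. The larger number of called members in G4D than in wild type therefore does not show that the members responded differently.

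From low to high, the 4 group means ran from wild-type sham through G4D sham and wild-type TAC to G4D TAC for Itga9, Itgav and Itgb1. For Itga1 and Itga5 the sham groups changed places. Among these 5 genes the neighbours in the order overlapped, except wild-type sham and wild-type TAC of Itga1 and the TAC groups of Itga9. For Itga7 the first 3 means lay between 8.1 and 8.23, with G4D TAC highest, and for Itgb3 they ran from G4D sham through G4D TAC and wild-type TAC to wild-type sham, all overlapping. For Itgb5 the order ran by genotype, wild-type sham, wild-type TAC, G4D sham and G4D TAC. For Itgb1bp2 it ran from G4D TAC through wild-type TAC and G4D sham to wild-type sham, with each neighbouring pair overlapping.

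The most similar array profiles were sought by the root mean square difference over 21 arrays, after each gene was centred on its own mean. For Itga9 the nearest were Mxra7 (0.21), the orphan receptor gene Gpr153 (0.214) and the kinase gene Nuak1 (0.219), where the median over all tested genes was 0.574. For Itga1 they were the sorting nexin gene Snx7 (0.173), Nckap1l, a blood cell member of the actin-regulating WAVE complex (0.185), and Dsel of dermatan sulfate synthesis (0.188). For Itga5 they were Mical2, an actin-oxidising enzyme (0.218), Plekho1 (0.267) and P3h3, a collagen prolyl hydroxylase gene (0.279). For Itgav they were the vesicle coat gene Ap3s1 (0.133), Cttn, the actin-binding protein cortactin (0.137), and Rcn1 of the endoplasmic reticulum (0.139). The same median was 0.567 for Itga1, 0.598 for Itga5 and 0.382 for Itgav. The measure is small for genes that vary little, and the SD over arrays was 0.309 for Itgav and 0.536 for Itga9. After TAC the change of Nuak1 was 0.58 in wild type and 1.28 in G4D, and that of Cttn was 0.46 and 0.61. Among members the closest pairs were Itga7 with Itgav and Itgb1 with Itgb5, both at 0.263, and Itga1 stood 0.318 from Itga9.

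Other integrin genes were set beside the members. Of 6 leukocyte integrin genes tested, 0 rose and 1 fell after TAC in G4D, Itgax of dendritic cells and macrophages at -0.35 ± 0.12, and 1 rose in wild type, Itgb2, the common leukocyte beta subunit, by 0.55 ± 0.15 (chosen after its values were seen). Itgam, which marks myeloid cells, had a mean of 2.74, below the filter. Of 7 further integrin genes 1 rose in each genotype, Itga6, a laminin receptor subunit, by 0.59 ± 0.14 in wild type and 0.64 ± 0.13 in G4D. Their medians after TAC in G4D were 0.02 and -0.10.

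The cytoplasmic partners of integrins, which link the beta tail to actin, rose in 11 of 22 after TAC in G4D and fell in 2, with a median of 0.32, and rose in 8 of 22 in wild type with a median of 0.23. Flnc, the muscle filamin, rose by 0.38 ± 0.10 in wild type and 0.92 ± 0.09 in G4D (adjusted p = 9.25e-07), and was higher in G4D than in wild type after TAC by 0.54 (adjusted p = 0.00158). Actn1, a non-muscle alpha-actinin, rose by 0.76 and 0.82, and Rsu1, of the complex with integrin-linked kinase, by 0.44 and 0.51. Parva, the parvin of that complex, rose by 0.55 in G4D and stood at 0.32 in wild type, not called. Of 9 adhesion signalling genes 3 rose in G4D, the scaffold Bcar1 by 0.51, the adaptor Shc1 by 0.38 and the kinase Fyn by 0.35, and 0 were called in wild type.

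The ligands of these receptors are matrix proteins. All 6 fibrillar collagen genes tested rose in G4D, with a median of 1.66, and 5 of 6 in wild type, with a median of 1.37, among them Col1a1 by 2.07 and 1.58. Of 10 RGD and matricellular ligand genes 7 rose in G4D and 5 in wild type, with Fn1, fibronectin, up by 1.75 and 1.69 and Postn, a ligand of alpha v integrins, by 3.42 and 2.62. Laminin chains rose in 4 of 9 and fell in 2 in G4D, with Lamb1 up by 0.90 and Lamb3 down at -1.19 ± 0.21, and rose in 3 of 9 in wild type. Between genotypes after TAC, 0 of 6 collagen, 1 of 10 ligand and 1 of 9 laminin genes were called, beside 3.36% of all genes. For the difference of the TAC changes 0 were called in each of these lists.

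**Figure D4:**
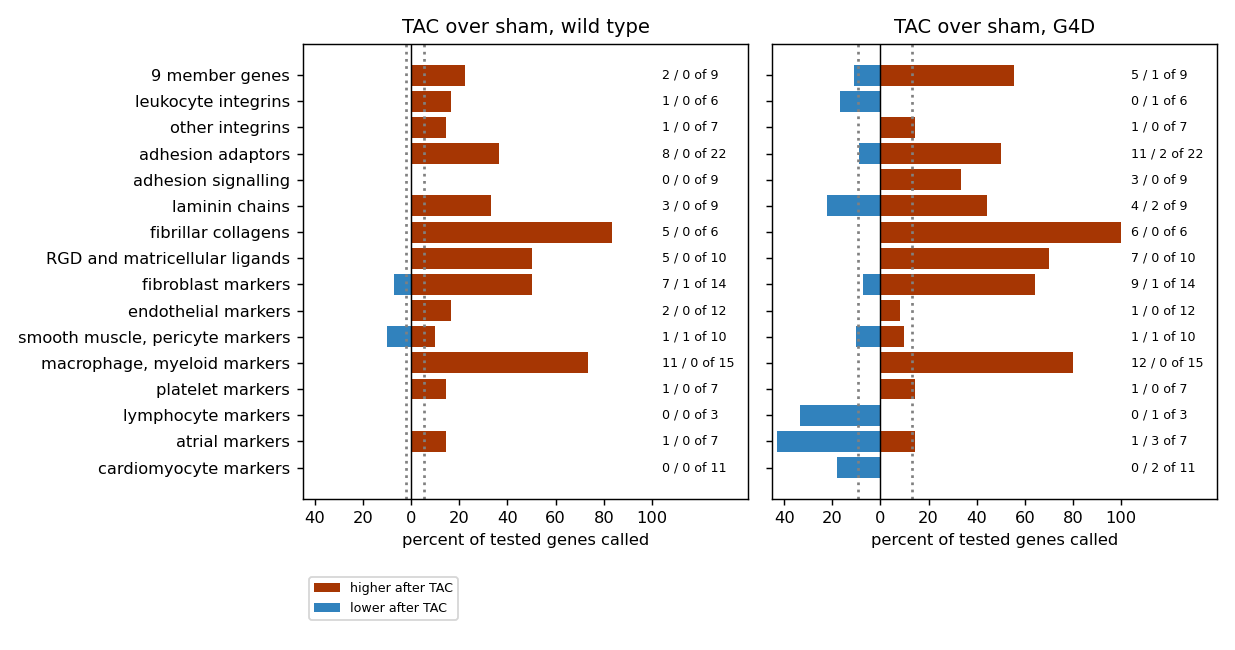
Percent of tested genes called higher (right of 0) or lower (left of 0) after TAC in wild type and in G4D for the 9 members, other integrin and adhesion lists, ligand lists and cell type markers (y axis), with counts higher and lower of the number tested; dotted lines are the shares of all tested genes. In G4D 5 members were higher and 1 lower of 9, beside 11 and 2 of 22 adhesion adaptors and 6 and 0 of 6 fibrillar collagens.

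Cell type markers were set beside the same comparisons. Of all tested genes 22.5% were called after TAC in G4D, 7.35% after TAC in wild type and 3.36% between genotypes after TAC. Fibroblast markers rose in 9 of 14 and fell in 1 after TAC in G4D, with a median of 0.78, and rose in 7 and fell in 1 in wild type, with a median of 0.62. Their mean log2 level ran from 8.42 to 8.54 in wild-type sham, 8.79 to 9.35 in wild-type TAC, 8.42 to 8.9 in G4D sham and 9.14 to 9.6 in G4D TAC. After TAC 4 of the 14 were higher in G4D than in wild type, with Serpinf1 at 0.97 and Mfap5 at 0.90, and 0 were lower. The 14 had a median of 0.24 in this comparison, and among those not called were Dpt at 0.00 and Gsn at -0.18. Of 10 smooth muscle and pericyte markers 2 were also higher in this comparison, Acta2 at 0.81 (chosen after its values were seen) and Cspg4 at 0.66. The median over these 10 was -0.03. Macrophage and myeloid markers rose in 12 of 15 in G4D and 11 of 15 in wild type, and their mean level ran from 7.11 to 7.32, 7.44 to 8.28, 6.93 to 7.35 and 7.57 to 8.07 in the 4 groups in that order, with 0 of 15 called between genotypes after TAC. Heart muscle markers stayed within 12.3 to 12.43 in all 4 groups, with 2 of 11 lower in G4D after TAC. After TAC smooth muscle and pericyte markers rose in 1 of 10 in each genotype, Cspg4 by 0.49 and 1.09, and fell in 1, Abcc9 at -0.31 and -0.46. Endothelial markers rose in 1 of 12 in G4D and 2 of 12 in wild type. Of 7 platelet markers, which bear on Itgb3, 1 rose in each genotype, Pf4 by 0.51 and 0.52. Lymphocyte markers fell in 1 of 3 in G4D, and atrial markers rose in 1 and fell in 3 of 7 in G4D. The mean atrial level was 10.15 on G4D sham replicate 5 and 6.75 to 6.98 on the other G4D sham arrays. In G4D TAC it ran from 6.47 to 7.26, and the atrial falls without replicate 5 were not tested. The part of any of these cell types in the integrin changes was not tested.

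Actin control probe sets at the 3′ end read above those at the 5′ end, a sign of RNA quality, by a log2 difference that ran from 0.437 to 0.667 in wild-type sham, 0.113 to 0.408 in wild-type TAC, 0.385 to 0.628 in G4D sham and 0.193 to 0.379 in G4D TAC. TAC and sham did not overlap on it in either genotype, so that TAC and RNA quality on this scale cannot be told apart for any member. The same difference of the Gapdh controls ran from -0.326 to 0.111, -0.303 to -0.0643, -0.418 to -0.226 and -0.315 to -0.0107 in these groups in that order, and on it sham and TAC overlapped in both genotypes. Without G4D sham replicate 5, the array with high atrial markers, 5 of the 9 members were called after TAC in G4D, and the call lost was that of Itgb1bp2.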

How the data were processed

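Total RNA of 21 mouse heart samples was measured on 1-colour arrays. The authors deposited 1 log2 value per probe set and array, summarised with PLIER per the submitters' processing notes; its settings are not given in the sources used here. That the scale is log2 was read from the range, -13.5 to 15.1. Groups came from the titles, and no batch or date is in the labels. Of 45101 probe sets 64 controls were left out and the rest quantile normalized between arrays. Symbols came from the platform annotation: 34945 probe sets carried 1 symbol, 932 several and 9160 none. Probe sets with 1 symbol and a mean at or above the 40th percentile (4.35) were kept, and the brightest stood for its gene, which gave 13279 tested genes. With limma 3.58.1 (R 4.3.3; lmFit, eBayes), 4 group means were fitted over all 21 arrays with no covariate and 17 residual degrees of freedom, two-sided, with Benjamini-Hochberg adjustment. A second fit took all 45037 probe sets. The fit was tested on simulated data. Alternatives are given in the closing section. The named-gene rule took all members with every probe set, up to 4 called genes of each list with the largest change after TAC in G4D (or up to 2 as values), and the 3 genes of nearest profile for 4 members. Members, lists and the rule were chosen with earlier results of these data known. Of the list symbols, 13 including Itga11 had no probe set of their own here.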

Additional observations from a re-analysis of the deposited data

Results flagged for a closer look

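Among 36 sets of a member and a group that were searched for an array far from the rest, 2 had one, and chance flags about 1 in 20 such sets. Itga5 stood at 7.47 in G4D sham replicate 4, where the nearest other array of the group was at 6.46 and the lowest at 6.22. Itgb3 stood at 4.79 in G4D sham replicate 3, where the nearest was at 6.35 and the highest at 6.85; that array also had the lowest correlation with the rest of its group (0.969) and the lowest median before normalization (4.31).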

How the results depend on the processing

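After TAC in G4D, 4 to 8 of the 9 members were called over all alternatives, beside 6, and Itga9, Itga1 and Itga5 were called in each, Itga5 at 0.27 with the mean of the probe sets. After TAC in wild type, 2 members were called, but 1 with no filter, with the mean of the probe sets or with the replicate number as a block, 0 in the values as deposited and 0 with median centring, and 0 to 2 on leaving out 1 array (0 without wild-type sham replicate 1). Between genotypes after TAC, 2 were called, 1 in the values as deposited, and 2 to 3 without 1 array. In sham and for the difference of TAC changes 0 were called throughout. Among values called in either setting, the 1 that reversed was Itgb1bp2 after TAC in G4D, at 0.14 in the values as deposited, where the median of all genes shifted by 0.31 and 97.8% of called genes were higher, against 58.6% here; the cause was not tested. Changes called in neither setting turned sign in 14 of the 45 member results, among them Itgb1 in sham (0.20, and -0.16 as deposited) and Itgav after TAC in wild type (0.24, and -0.09 with the mean of the probe sets). Over all genes, the count called after TAC in wild type was 976, 95 as deposited, 388 with median centring and 488 with the block; between genotypes after TAC it was 446, 64, 185 and 274. Same-numbered arrays of different groups deviated together (r over 0.1) in 9 of 28 pairs, beside 52 of 136 pairs of different number. Of 21 arrays 2 correlated best with an array of their own number. The profiles thus showed no pairing by number, and whether the samples were handled in pairs is not known. The block also left Itgb1bp2 in G4D uncalled (-0.25) and called Itgb5 there (0.34). Dim probe sets, below 4.35, limit what can be read from 7 of the 28.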
